A study of Mus musculus with 12 samples.

Results

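Genes of developmental and growth factor signalling were described in the renal medulla, the inner kidney where urine is concentrated, of 3 water-restricted and 3 control mice. They were the 55 genes, of 6786 with a named clone, whose single symbol in the platform annotation began as Wnt, Fzd, Dvl, Axin, Ctnna, Ctnnb, Ctnnd, Sfrp, Dkk, Tgfb, Smad, Bmp, Inhb, Notch, Jag, Fgf, Pdgf, Igf, Vegf, Efna, Efnb, Epha or Ephb, or was Lrp5 or Lrp6, with Wnt4 left out. They were covered by 74 clones. The rule itself used names only and no measured value, but it was set with earlier results of these data known. No clone carried a single Dvl, Sfrp, Lrp5, Lrp6, Inhb, Notch, Jag or Vegf symbol, so these branches were not analysed here. The 55 genes comprised 13 of Wnt signalling and the catenins, 18 of transforming growth factor beta (TGF-beta) and bone morphogenetic protein (BMP) signalling, 10 of the insulin-like growth factors, 5 of the fibroblast growth factors, 4 of the platelet-derived growth factors, and 5 ephrins and Eph receptors.

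These families carry signals between cells. A secreted or membrane-bound ligand binds a receptor of the receiving cell, and secreted binding proteins and inhibitors limit how much ligand is free. Wnt ligands act through Frizzled receptors and stabilise beta-catenin, which Axin otherwise helps to destroy. TGF-beta and BMP ligands act through paired serine/threonine kinase receptors and Smad transcription factors. Growth factors of the other families act through receptor tyrosine kinases. In the kidney these pathways shape the nephron and collecting duct during development, and in the adult they act in repair and in the interstitium between tubules.

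The labels call the animals water-restricted or control mice and give no strain, sex, age, or length of restriction. Total RNA was amplified and hybridised to 2-colour arrays, each array with 1 water-restricted and 1 control mouse. All 9 pairs of mice were measured, 3 of them in both dye orientations, which makes 12 arrays and 6 per orientation. Each value is a log2 ratio, and the arrays are named here by the dye of their water-restricted mouse. The 6 Alexa Fluor 647 arrays had their sign changed so that all 12 point the same way. Which sign means more RNA under water restriction is not settled, because no source used here names the numerator dye. With 546 as the numerator dye a positive value means more RNA in the restricted animals, and with 647 it means less. Values are therefore given by side, positive or negative, and the contrast between both sides holds whichever dye it was, unless swapped arrays were deposited already turned. One array, pairing water-restricted mouse 2 with control mouse 2, had the widest spread of all spots (SD 1.21, against 0.515 to 0.764 on the other 11) and is called the widest array. The 2 spots of a clone correlated at 0.0955 on 1 array, water-restricted mouse 1 and control mouse 3 in Alexa Fluor 546, and at up to 0.851 on the others, over the 74 clones. No filter on low values was set, so each of the 55 genes entered every test. A ratio carries no level of a gene, so the tissue could not be checked against the levels of its markers. In whole tissue, fewer cells of a type and less RNA per cell cannot be told apart.

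Of the 55 genes, 3 had an unadjusted p under 0.05 in the comparison of the 6 mice, and their promoters are shown because the results open with these genes. They are Pdgfa, Igfbp4 and Epha2. Each line gives the 250 bases before a transcription start in RefSeq (build GRCm38.p6), 5′ to 3′ on the gene's strand, with matches of the GC box GGGCGG on either strand in capitals. Pdgfa has 2 such starts in that table.
Pdgfa, chr5:138994282-138994531, minus strand: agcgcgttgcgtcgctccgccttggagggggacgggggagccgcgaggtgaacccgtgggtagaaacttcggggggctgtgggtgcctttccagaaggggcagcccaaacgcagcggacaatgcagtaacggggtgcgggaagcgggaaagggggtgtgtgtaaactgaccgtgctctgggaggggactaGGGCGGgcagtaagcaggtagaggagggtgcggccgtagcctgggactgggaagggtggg
Pdgfa, chr5:138994945-138995194, minus strand: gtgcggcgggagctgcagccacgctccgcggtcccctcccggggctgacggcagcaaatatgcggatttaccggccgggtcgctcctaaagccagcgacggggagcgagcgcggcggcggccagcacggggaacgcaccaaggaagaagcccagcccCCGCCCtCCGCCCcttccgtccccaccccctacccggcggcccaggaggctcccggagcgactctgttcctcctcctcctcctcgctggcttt
Igfbp4, chr11:99040994-99041243, plus strand: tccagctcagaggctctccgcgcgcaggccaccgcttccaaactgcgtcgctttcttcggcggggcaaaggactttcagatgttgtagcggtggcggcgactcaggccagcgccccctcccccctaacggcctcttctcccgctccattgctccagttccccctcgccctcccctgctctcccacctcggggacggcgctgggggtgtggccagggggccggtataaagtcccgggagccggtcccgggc
Epha2, chr4:141300971-141301220, plus strand: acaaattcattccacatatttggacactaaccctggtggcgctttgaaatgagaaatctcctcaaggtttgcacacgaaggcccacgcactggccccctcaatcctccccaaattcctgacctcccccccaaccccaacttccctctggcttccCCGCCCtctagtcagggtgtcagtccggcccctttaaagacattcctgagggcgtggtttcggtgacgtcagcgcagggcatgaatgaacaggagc
The GC box occurred once in the first and 2 times in the second Pdgfa window, 1 time before Epha2 and 0 times before Igfbp4. Of the 3 genes, Igfbp4 had the one window with a TATA box (TATAAA). GC content was 66.4% and 72.4% in the Pdgfa windows, 69.2% for Igfbp4 and 55.6% for Epha2. Promoters were found for 42 of the 55 genes, with 56 starts. A GC box lay in 66.1% of these 56 windows and in 32.7% of all 32851 windows of the same length in the table. TATAAA lay in 12.5% against 12.4%, and CTTTGA, the core bound by the Wnt pathway's TCF/LEF factors, in 10.7% against 13.8%. TGGAAA, the core of the tonicity element, lay in 8.93% against 18.6%. The 32851 windows were not limited to genes measured on the arrays, so these shares compare unlike sets. Of the windows shown, the first of Pdgfa held TGGAAA 1 time and that of Epha2 held CTTTGA 1 time, counting either strand. These matches describe letters in a window and not bound sites.

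Among the 3 genes, the growth factor Pdgfa lay on the negative side, and Igfbp4, a secreted protein that binds insulin-like growth factors, and Epha2, an ephrin receptor, on the positive side. None of the 55 genes passed in limma's comparison of mouse levels after Benjamini-Hochberg adjustment over all genes (0 of 55, against 0% of all genes). The share at an unadjusted p under 0.05 was 5.45% (3 of 55), close to the 4.97% of all 6786 genes. On the negative side it was 1 gene, against 1.75% of all genes, and on the positive side 2, against 3.21%. A fit with random mouse effects called 1 of the 55, Pdgfa, against 1.65% of all genes. That fit takes its error from the 12 arrays, with 1 variance ratio for all genes. It is less strict, with 12.4% of all genes at an unadjusted p under 0.05, against 4.97% for mouse levels. Treating the 12 arrays as replicates, although they share mice, called 4 (7.27%), close to the 6.65% of all genes. These were Pdgfa, Igfbp4, Epha2 and Axin1.

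Pdgfa, which encodes the A chain of platelet-derived growth factor, had fitted levels of -0.79, -0.21 and -0.36 in water-restricted mice 1, 2 and 3, against 0.67, 0.31 and 0.37 in control mice 1, 2 and 3. A fitted level is a mouse's log2 value relative to the mean of the 6 mice. The groups did not overlap, and every water-restricted mouse lay below every control mouse on this scale. The log2 difference was -0.90 (SE 0.20, 3 against 3 mice, adjusted p = 0.553 by limma). With random mouse effects, the less strict fit, the adjusted p was 0.00826. Of the 12 arrays 11 were negative, with a lowest value of -1.50, a median of -1.11 and a highest of 0.27. The one positive array was the widest array. Without it the difference of Pdgfa was -1.06 (SE 0.18, adjusted p = 0.25). It was -0.66 on the 6 Alexa Fluor 546 arrays and -1.20 on the 6 Alexa Fluor 647 arrays.

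Igfbp4 had levels of 0.24, 0.10 and 1.12 in water-restricted mice, against 0.23, -0.65 and -1.03 in control mice. The groups overlapped, since control mouse 1 lay at the level of water-restricted mouse 1 and above water-restricted mouse 2. The log2 difference was 0.97 (SE 0.37, adjusted p = 0.904 by limma). Both dye orientations gave nearly the same value, 0.98 and 0.93. The 3 arrays at or below 0 were the 3 on which control mouse 1 met water-restricted mouse 1 or 2. Mice of the same group differed in Igfbp4 beyond the error between arrays, by limma's F-test over all genes (F = 19.9, adjusted p = 0.0456). It was the only one of the 55 genes to pass that test, against 0.206% of all genes. At an unadjusted p under 0.05 there were 7 of 55, or 12.7%, against 12.8% of all genes, the other 6 being Tgfb2, Ctnnal1, Fgfr1op2, Tgfbi, Ctnnb1 and Bmp4. In Tgfb2, a TGF-beta ligand, levels ran from -0.37 to 0.53 among water-restricted mice and from -0.77 to 0.56 among control mice, with a group difference of -0.02 (SE 0.36).

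Epha2, a receptor tyrosine kinase of epithelial cells, had levels of 0.21, 0.0077 and 0.58 in water-restricted mice, against -0.67, -0.06 and -0.08 in control mice. The groups did not overlap, though water-restricted mouse 2 lay just above control mice 2 and 3. The log2 difference was 0.53 (SE 0.23, adjusted p = 0.961). Of the 12 arrays 11 were positive, and the highest, at 1.87, paired water-restricted mouse 3 with control mouse 1. Its value was 0.34 on the Alexa Fluor 546 arrays and 0.63 on the Alexa Fluor 647 arrays. Leaving out 1 mouse at a time, Epha2 ran from 0.33 without control mouse 1 to 0.66 without water-restricted mouse 2, Igfbp4 from 0.655 without water-restricted mouse 3 to 1.33 without control mouse 1, and Pdgfa from -1.02 without water-restricted mouse 2 to -0.73 without water-restricted mouse 1. All 3 genes thus kept their side whichever mouse was left out. They were picked for an unadjusted p under 0.05 in the same mice, so leaving out 1 mouse could hardly change a side. Keeping the side is therefore no separate sign of stability.

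In all, the levels of the 6 mice did not overlap between groups in 4 of the 55 genes (7.27%), against 9.8% of all genes. The water-restricted mice were the lower in 3, Pdgfa and the fibroblast growth factor receptors Fgfr1 and Fgfr2, against 3.86% of all genes, and the higher on this scale in 1, Epha2, against 5.94%. None of the 55 genes had the sign of its difference on all 12 arrays, against 2.05% of all genes.

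**Figure D1:**
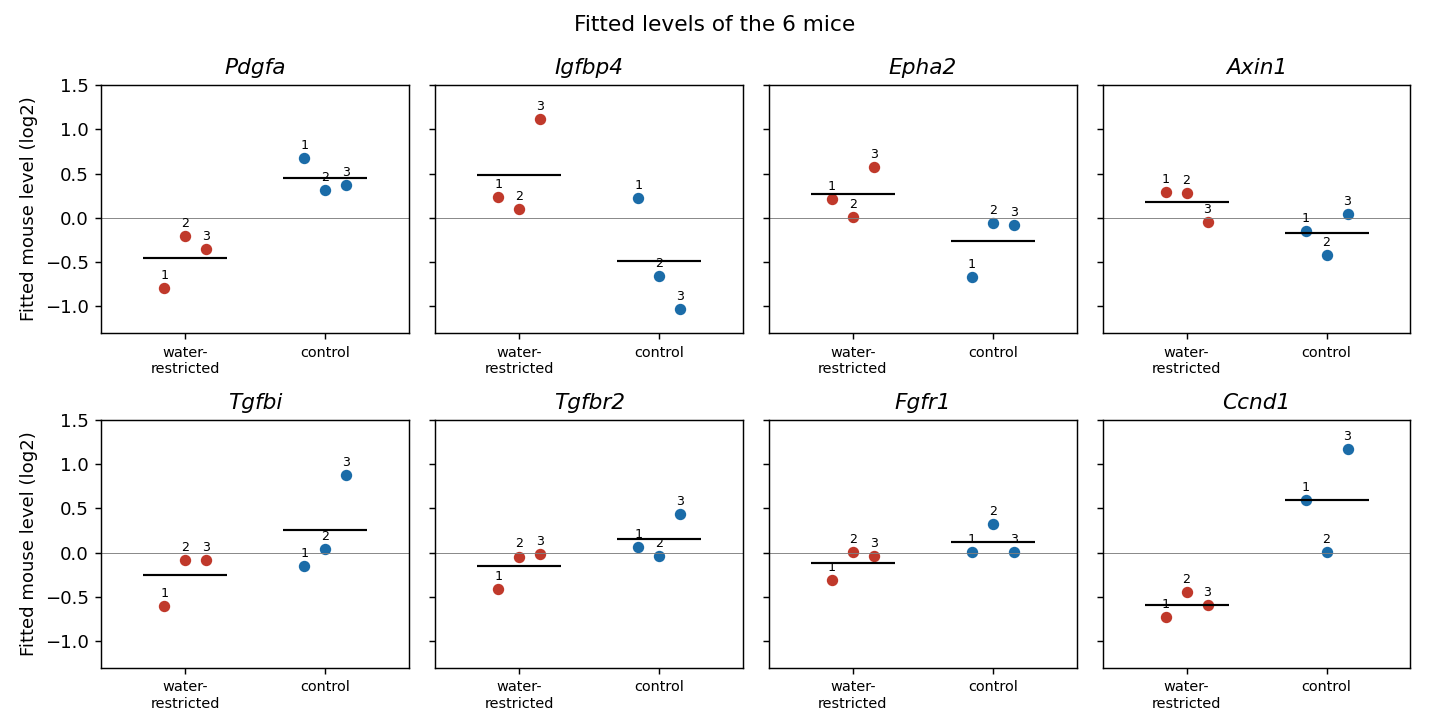
Fitted log2 levels of 7 signalling genes and the partner gene Ccnd1, relative to the mean of the 6 mice, in water-restricted (red) and control (blue) mice; each point is a mouse with its number, and lines are group means. The groups do not overlap for Pdgfa, Epha2, Fgfr1 and Ccnd1, and control mouse 1 lies among the water-restricted mice for Igfbp4.

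Across the whole set, 36 of 55 genes were on the negative side (65.5%), against 49.3% of all genes. Read as already turned before deposit, the ratios put 22 of 55 on the negative side, against 40.6% of all genes. In the first reading the median log2 difference was -0.09, against 0.0034 over all genes. On the Alexa Fluor 546 arrays 25 of the 55 genes were negative (45.5%, against 42.5% of all genes) and their median was 0.01, against 0.05 over all genes. On the Alexa Fluor 647 arrays 38 were negative (69.1%, against 56.2% of all genes) and their median was -0.16, against -0.04 over all genes. The share was thus larger on the Alexa Fluor 647 arrays both in the set and over all genes. Most differences were small, with 39 of 55 genes under 0.25 in size.

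**Figure D2:**
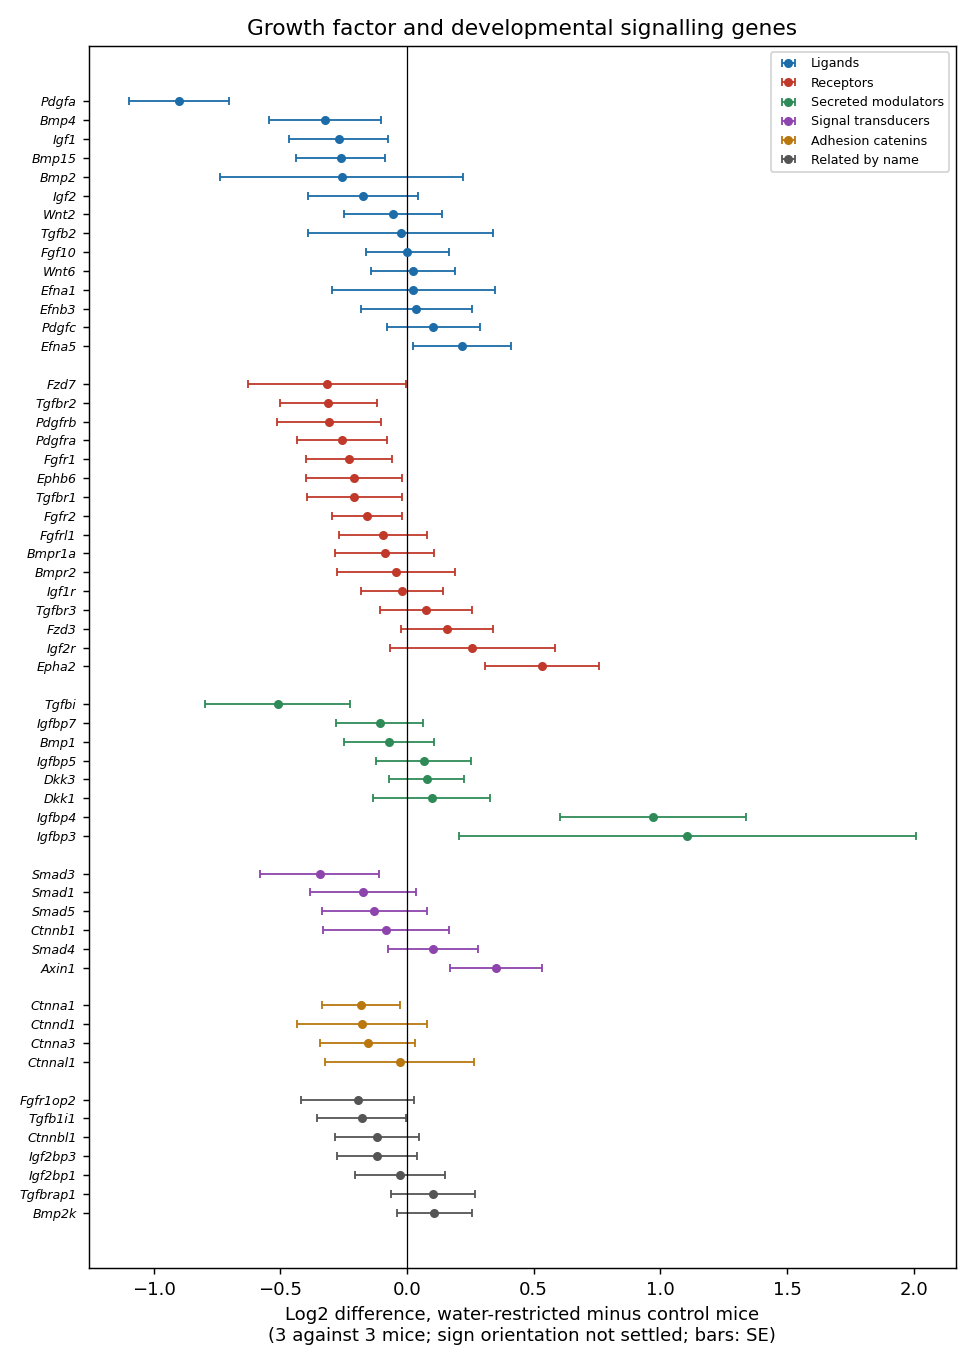
Log2 difference between 3 water-restricted and 3 control mice for each of the 55 genes, by role; points are estimates, bars are SE, and the sign has no settled direction. Pdgfa lies lowest at -0.90, Igfbp4 and Igfbp3 lie highest at 0.97 and 1.11, and Igfbp3 has the widest SE.

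Among the 14 ligands, 8 were on the negative side, with a median of -0.04 and a range from -0.90 (Pdgfa) to 0.22 (Efna5). The second platelet-derived ligand measured, Pdgfc, had 0.10 (SE 0.18). Igf1, a growth factor made in liver and kidney, had levels of -0.48, -0.02 and 0.10 in water-restricted mice, against 0.0031, 0.06 and 0.34 in control mice. These overlapped, and the difference was -0.27 (SE 0.20). Efna5, a membrane-anchored ligand of Eph receptors, had levels of 0.07, 0.41 and -0.15 in water-restricted mice, against 0.05, -0.33 and -0.05 in control mice. Its groups also overlapped, with a difference of 0.22 (SE 0.19). The BMP ligands Bmp4, Bmp15 and Bmp2 were chosen for mention after their values were seen, and had -0.32 (SE 0.22), -0.26 (SE 0.18) and -0.26 (SE 0.48). None of the Wnt ligands Wnt2 and Wnt6, Tgfb2 and Fgf10 differed by more than 0.06 in size.

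Of 16 receptors 12 were on the negative side, with a median of -0.13 and a range from -0.32 (Fzd7, a Wnt receptor) to 0.53 (Epha2). Tgfbr2, the ligand-binding TGF-beta receptor, had levels of -0.41, -0.04 and -0.01 in water-restricted mice, against 0.07, -0.04 and 0.44 in control mice. Its difference was -0.31 (SE 0.19), with 9 of 12 arrays negative, and was -0.02 and -0.62 in the 2 dye orientations. Its partner Tgfbr1, which carries the signal inward, had -0.21 (SE 0.19) and the co-receptor Tgfbr3 0.07 (SE 0.18). Fgfr1 had levels of -0.31, 0.0052 and -0.04 against 0.0083, 0.33 and 0.0086. Water-restricted mouse 2 and control mice 1 and 3 lay almost together, and the difference was -0.23 (SE 0.17). Fgfr2, a fibroblast growth factor receptor of epithelia, had -0.06, -0.15 and -0.03 against 0.09, 0.06 and 0.09. That is a difference of -0.16 (SE 0.14), carried by 1 of its 2 clones, which had 0.0045 and -0.32. Pdgfrb, the platelet-derived growth factor receptor of pericytes and fibroblasts, had -0.45, 0.11 and -0.12 against -0.10, 0.13 and 0.43. Its groups overlapped, with a difference of -0.31 (SE 0.21). The adjusted p was 0.996 for each of Tgfbr2, Fgfr1, Fgfr2 and Pdgfrb. The related Pdgfra, which marks fibroblasts, had -0.12, 0.12 and -0.39 against 0.19, -0.03 and 0.22, a difference of -0.26 (SE 0.18) with 10 of 12 arrays negative. Igf1r, which transmits the signal of insulin-like growth factors, had -0.02 (SE 0.16), and Igf2r, which clears Igf2, 0.26 (SE 0.33). On the Alexa Fluor 647 arrays 13 of the 16 receptors were negative with a median of -0.29, and on the Alexa Fluor 546 arrays 6 with a median of 0.02. The receptors Tgfbr1, Tgfbr3, Pdgfra, Igf1r, Igf2r and Fzd7 were chosen for mention after their values were seen.

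The 8 secreted modulators held the highest values of the set, with 3 negative, a median of 0.07 and a range from -0.51 to 1.11. Tgfbi, a matrix protein induced by TGF-beta, had levels of -0.61, -0.08 and -0.08 in water-restricted mice, against -0.15, 0.04 and 0.88 in control mice. Its groups overlapped and its difference of -0.51 (SE 0.29, adjusted p = 0.996) included a single array of -2.89, from water-restricted mouse 1 and control mouse 3, which was the lowest of the 12. The same mice in the other orientation gave -0.87. Igfbp3, the main carrier of insulin-like growth factors in blood, had the largest difference of the 55 at 1.11, but with an SE of 0.90. Its levels were -0.17, 2.34 and -0.51 in water-restricted mice and 0.91, -2.24 and -0.33 in control mice, with mouse 2 of each group far from the others. It was 7.80 on the widest array and between -1.06 and 0.98 on the other 11, and without the widest array its difference was 0.36 (SE 0.31). Igfbp5 and Igfbp7, further binding proteins of the family, had 0.07 (SE 0.19) and -0.11 (SE 0.17). The Wnt inhibitor Dkk1 had 0.10 and the related Dkk3 0.08, and Dkk3 was 0.63 on the Alexa Fluor 546 arrays and -0.35 on the Alexa Fluor 647 arrays. Bmp1, a protease that matures collagen, had 2 clones on opposite sides, -0.38 and 0.24. Apart from Igfbp4 and Tgfbi, these modulators were chosen for mention after their values were seen.

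**Figure D3:**
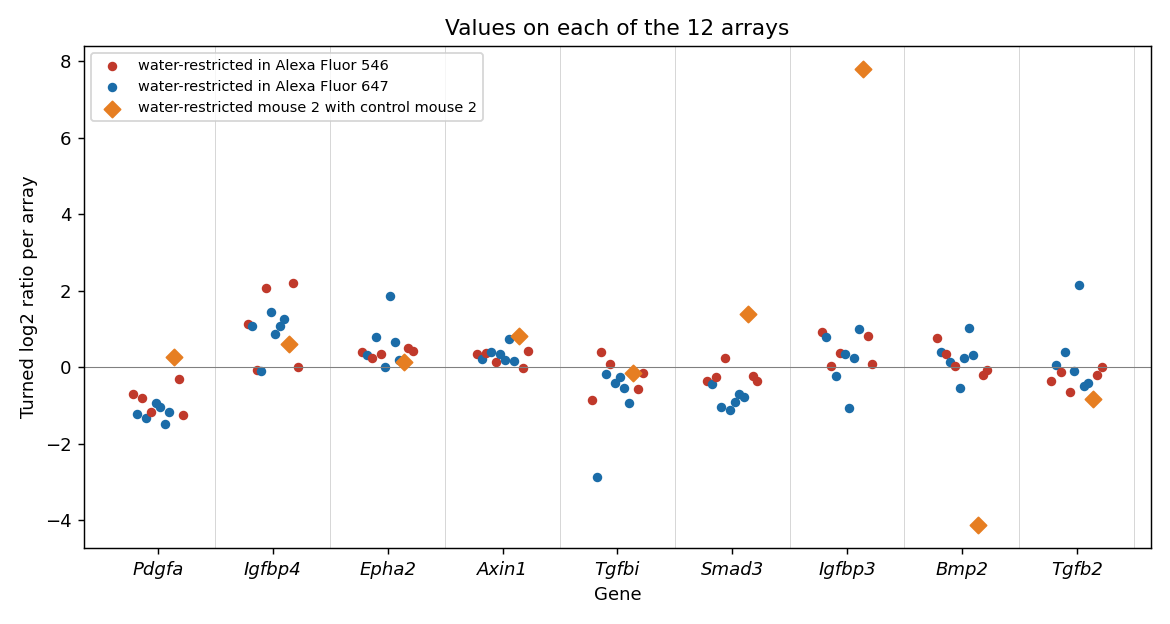
Turned log2 ratios of 9 genes on each of the 12 arrays, by dye orientation, with the widest array as a diamond. It stands far from the others for Igfbp3 (7.80) and Bmp2 (-4.14), and is the one positive array for Pdgfa.

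The widest array lay outside the range of the other 11 for 25 of the 55 genes (45.5%), against 39.6% of all genes. For Bmp2 it read -4.14, and without it the difference was 0.23 (SE 0.18) in place of -0.26. Without it 7 of the 55 genes changed the sign of their difference, and 33 of 55 were negative. These 7 were Efnb3, Efna1, Igf2bp1, Bmp2, Bmp1, Bmpr2 and Ctnnd1, and Efna1, an ephrin ligand, moved from 0.03 (SE 0.32) to -0.29 (SE 0.19).

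Among the 6 signal transducers, Axin1, the scaffold of the complex that destroys beta-catenin, lay on the positive side. It had levels of 0.30, 0.28 and -0.04 in water-restricted mice, against -0.15, -0.42 and 0.04 in control mice. The groups overlapped because control mouse 3 lay above water-restricted mouse 3. The difference was 0.35 (SE 0.18, adjusted p = 0.996), with 11 of 12 arrays positive, and it was 0.33 and 0.34 in the 2 dye orientations. Beta-catenin itself (Ctnnb1) had -0.08 (SE 0.25). Of the 4 Smad genes, Smad1, Smad3 and Smad5, which receptors phosphorylate, were negative at -0.17, -0.345 and -0.13, and the shared partner Smad4 was positive at 0.10. Without the widest array Smad1, Smad3 and Smad5 had -0.27 (SE 0.17), -0.51 (SE 0.14, limma adjusted p = 0.503) and -0.29 (SE 0.15). Smad3, which carries TGF-beta signals, had levels of -0.32, 0.17 and -0.36 in water-restricted mice, against 0.47, -0.25 and 0.30 in control mice. Mouse 2 of each group crossed over, and the Smad3 difference was 0.07 on the Alexa Fluor 546 arrays and -0.84 on the Alexa Fluor 647 arrays. Ctnnb1 and the Smad genes were chosen for mention after their values were seen.

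All 4 adhesion catenins, which link cadherins to actin or regulate that link, were on the negative side, with a median of -0.17. Ctnna1 had levels of -0.07, -0.14 and -0.07 in water-restricted mice, against -0.07, 0.06 and 0.28 in control mice. The difference was -0.18 (SE 0.15), and its 3 clones disagreed at -0.04, -0.66 and 0.16. The 3 clones of Ctnnd1 also lay on both sides, at -0.11, 0.10 and -0.52. Of the 15 genes with at least 2 clones, 9 had all clones on 1 side and 6 did not. Igf2bp1, with 4 clones, was among the latter at -0.13, 0.14, -0.16 and 0.04.

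The remaining 7 genes share a name with the families and were not sorted into the roles above. They include the RNA-binding proteins Igf2bp1 and Igf2bp3 and the kinase Bmp2k. The others are Ctnnbl1, Tgfb1i1, Tgfbrap1 and Fgfr1op2. Of these, 5 were negative, with a median of -0.12 and a range from -0.20 to 0.11.

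By family, 14 of 18 genes of TGF-beta and BMP signalling were negative (77.8%, against 49.3% of all genes), with a median of -0.15. The number was 8 of 13 for Wnt signalling and the catenins (median -0.05), 6 of 10 for the insulin-like growth factors (-0.025), 4 of 5 for fibroblast growth factors (-0.16), 3 of 4 for platelet-derived growth factors (-0.28), and 1 of 5 for ephrins and Eph receptors (0.04). The TGF-beta and BMP median was -0.15 on the Alexa Fluor 546 and -0.14 on the Alexa Fluor 647 arrays. Over all genes the median was 0.05 and -0.04, so the distance from all genes was not the same in both orientations. The median of the platelet-derived growth factors was -0.08 and -0.54, and that of the fibroblast growth factors 0.01 and -0.30. In 7 of the 18 TGF-beta and BMP genes both orientations had opposite signs (38.9%, against 52.3% of all genes). None of the 18 genes of TGF-beta and BMP signalling had an unadjusted p under 0.05.

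A dye term, the part of a ratio that changes sign with the dyes, passed limma's adjusted threshold in 2 of the 55 genes (3.64%), against 6.62% of all genes. Fgfrl1, a fibroblast growth factor receptor without a kinase domain, had a dye term of 0.40 (SE 0.08, n = 12 arrays, adjusted p = 0.0279) and a group difference of -0.09. Ctnnbl1, a splicing-associated protein named after beta-catenin, had 0.47 (SE 0.09, adjusted p = 0.0222) and a group difference of -0.12. The dye term exceeded the group difference in size in 22 of the 55 genes, against 51.1% of all genes. The differences from both orientations had opposite signs in 27 of 55, or 49.1%, against 52.3%.

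**Figure D4:**
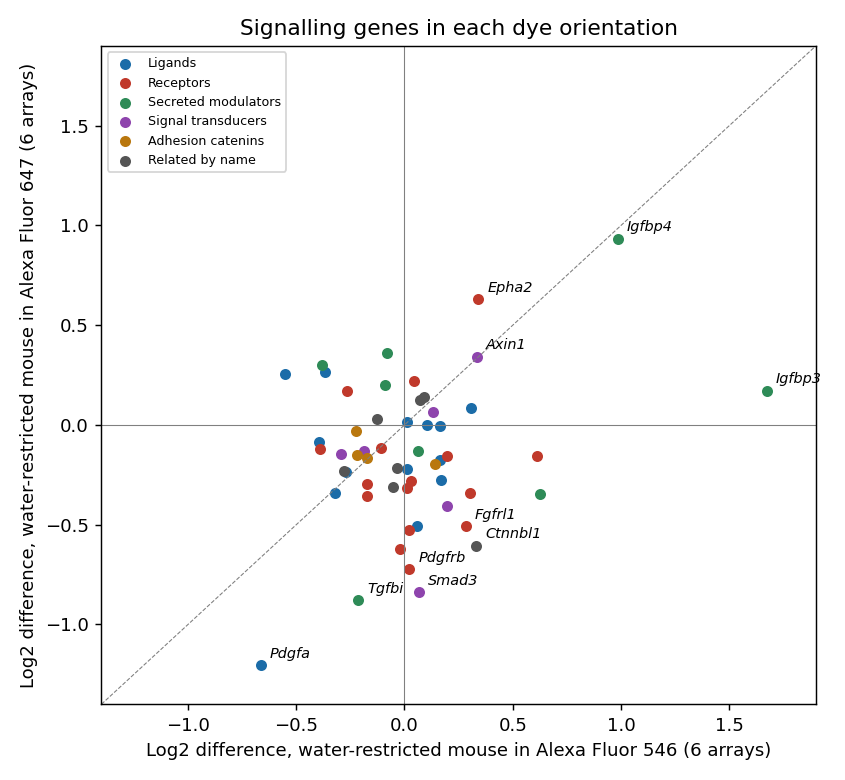
Log2 difference of each of the 55 genes on the 6 Alexa Fluor 546 arrays (x) and the 6 Alexa Fluor 647 arrays (y); the dashed line marks equal values. Igfbp4 (0.98 and 0.93) and Axin1 (0.33 and 0.34) lie near the line, and Fgfrl1 and Ctnnbl1 lie in the quadrant of opposite signs.

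Other genes of the same pathways were taken from lists of partners, without the 55 and Wnt4. None passed limma's adjusted threshold in the comparison of mouse levels. Over all genes, 4.97% had an unadjusted p under 0.05 and 9.8% had groups that did not overlap. Groups did not overlap in 1 measured partner of Wnt signalling, 4 of TGF-beta and BMP signalling, 0 of Notch and 1 among receptor kinases. The genes named below had the smallest p of their list, which favours groups that do not overlap. Of 57 listed partners of Wnt signalling 27 were measured, 13 of them negative, and 1 had an unadjusted p under 0.05. This was Ccnd1, or cyclin D1, a cell cycle regulator and textbook target of beta-catenin. It had levels of -0.73, -0.45 and -0.59 in water-restricted mice, against 0.60, 0.0072 and 1.17 in control mice. The groups did not overlap, and 12 of 12 arrays were negative, from -2.12 to -0.23. The difference was -1.18 (SE 0.27, adjusted p = 0.609 by limma on mouse levels). With random mouse effects, the less strict fit, the adjusted p was 0.00224. Csnk2a1, a catalytic subunit of casein kinase 2, had 0.55 (SE 0.31).

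Of 48 partners of TGF-beta and BMP signalling 17 were measured and 11 were negative. Both with an unadjusted p under 0.05 were negative. Fstl1, a secreted follistatin-like protein, had levels of -0.87, 0.03 and -0.09 against 0.23, 0.31 and 0.39, a difference of -0.62 (SE 0.24, adjusted p = 0.908). Id3, a classical BMP target gene, had -0.31, -0.15 and -0.46 against -0.08, 0.09 and 0.90, a difference of -0.61 (SE 0.26, adjusted p = 0.961). In neither did the groups overlap. Of 38 Notch partners 17 were measured, 11 of them negative. None had an unadjusted p under 0.05, and the smallest p were those of Dtx1, a Notch regulator (0.64, SE 0.37), and Adam10, a protease that cuts Notch (-0.24, SE 0.19). Of 64 partners among receptor kinases 18 were measured, 12 of them negative, again with none under 0.05. Erbb3, a receptor of neuregulins, had groups that did not overlap and a difference of -0.40 (SE 0.18), and the adaptor Grb7 -0.44 (SE 0.24).

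Lists of cell type markers were set beside these values in the same mice. Of 31 listed proximal tubule genes 5 were measured, with a median of 1.05 and mean levels of 0.39 to 0.54 in water-restricted mice and -0.92 to 0.22 in control mice. As for Igfbp4, the highest control level was that of mouse 1. Of 18 principal cell genes 7 were measured, with a median of -0.29 and mean levels of -0.25 to -0.19 against 0.08 to 0.42, on the side of Pdgfa and Ccnd1. Of 15 interstitial genes 11 were measured, 8 of them negative, with a median of -0.25 and mean levels of -0.12 to -0.03 against -0.06 to 0.21. Of these 11, Pdgfra (-0.26) and Pdgfrb belong to the 55. Few genes were measured for intercalated cells (2 of 9, median -0.40), endothelium (3 of 15, 0.18), leukocytes (5 of 19, 3 of them negative) and erythroid cells (3 of 8, -0.74), and 0 of 7 for thick ascending limb. Slc4a1 (-0.74) is on both the intercalated and the erythroid list, and it is the erythroid median. The intercalated median lies between it and Kit (-0.05), so the values of these lists are not separate. The part of the cell types in the differences above was not tested.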

How the data were processed

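For each of 31200 spots on 12 arrays the authors deposited a log2 ratio, with both channels named per the labels and the log base read from the values. How the background was corrected and ratios normalized, and which dye was the numerator, is not given in the sources used here. Both spots of a clone were averaged (15600 clones), and clones with 1 gene (9191) were averaged per gene, to 6786 genes. Symbols were looked up by Entrez identifier for 9085 of those clones in RefSeq's GRCm38.p6 gene table.

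Ratios of the 6 Alexa Fluor 647 arrays were turned. Levels of the 6 mice came from weighted least squares with a dye term, and each array of a dye-swapped pair had a weight of 0.5. Levels were compared 3 against 3 with limma 3.58.1 (R 4.3.3; lmFit, eBayes), two-sided, with Benjamini-Hochberg adjustment over all genes and a threshold of 0.05. SE are moderated. Dye terms and mice of 1 group were tested with limma on the 12 arrays. Random mouse effects used 1 variance ratio for all genes. Replicates are mice with numbers of their own, per the labels. The number of mice, 3 against 3, and the number of arrays limit the precision. Array medians lay between -0.04 and 0.06.

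The genes named were those with an unadjusted p under 0.05, 2 per family and per partner list with the smallest p, and those past the dye or mouse test. The genes, lists and tests were chosen with earlier results of these data known. The procedure was also run on simulated data, which gave all arrays of a gene the same error, unlike the widest array. That run checked the size of estimates and is not used here as support for any call. Same-numbered mice of both groups had correlated deviations of -0.01, -0.54 and -0.11 across genes, and the numbers were not taken as pairs. Same-numbered mice also met on an array, the widest array for mouse 2. Error on it pushes their levels apart, so these values could hardly show a pairing. Alternatives were median centring, scaling, the replicate block, 1 dye orientation, no dye term, ratios read as already turned, random mouse effects, arrays as replicates, the median over clones, updated symbols, and leaving out each mouse or either of 2 arrays.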

Additional observations from a re-analysis of the deposited data

Results flagged for a closer look

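In 6 cases the value of 1 array stood apart from the other 5 of its dye orientation. These were found in 44 groups of 6 arrays, where chance alone gives about 1 in 20. On the Alexa Fluor 647 arrays Igfbp4 had -0.12 for water-restricted mouse 2 against control mouse 1, Tgfbi -2.89 for mouse 1 against control mouse 3, Ctnnbl1 -0.10 for mouse 3 against control mouse 1, and Fstl1 -2.26 for mouse 1 against control mouse 2. On the Alexa Fluor 546 arrays Efna5 had 1.19 and Dtx1 1.85, both on the widest array. The effects of Fgfrl1 and Ctnnbl1 differed between the 2 dye orientations by limma's test of the dye term, which was 0.40 and 0.47.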

How the results depend on the processing

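In the comparison of mouse levels 0 of the 55 genes passed in every alternative except random mouse effects (1) and arrays as replicates (4), which also moved the count at an unadjusted p under 0.05 from 3 to 5 (9.09%, against 12.4% of all genes) and 13 (23.6%, against 1354 of all 6786 genes). That count was 5 on the Alexa Fluor 647 arrays alone (9.09%, against 543 of all 6786 genes) and 1 to 4 without single mice, lowest without water-restricted mouse 3 (1.82%, against 2.15% of all genes). The median of the 55 was 0.013 on the Alexa Fluor 546 arrays, -0.16 on the Alexa Fluor 647 arrays and 0.067 with ratios read as already turned, against -0.09. Without the widest array 4 genes had a dye term past the threshold (7.27%, against 9.76% of all genes), in place of 2 (3.64%, against 6.62%). The fit with the mouse number as a replicate block had 0 genes past the threshold and 2 at an unadjusted p under 0.05 (Pdgfa and Epha2, not Igfbp4), and changed no other call. Leaving out the dye term changed nothing, since both orientations are balanced over mice.

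Of the 22 named genes 3, Axin1, Efna5 and Csnk2a1, kept their side in all 19 alternatives. The alternative without the array with the lowest correlation of duplicate spots was chosen after seeing the data. Updated symbols, no dye term and the replicate block could not change a side, since their differences equal the main ones. Axin1, Efna5 and Csnk2a1 stayed at 0.0015, 0.14 and 0.037 with ratios read as already turned. With ratios read as already turned, the differences were -0.0057 for Igfbp4, -0.19 for Epha2, 0.31 for Pdgfa, 0.27 for Tgfbi, 0.32 for Tgfbr2, 0.10 for Fgfr1, 0.22 for Fgfr2, 0.35 for Pdgfrb, 0.0015 for Igf1, 0.44 for Fgfrl1, 0.45 for Ctnnbl1, 0.16 for Ccnd1, 0.55 for Fstl1, 0.17 for Id3, -0.11 for Dtx1, 0.18 for Erbb3 and 0.42 for Grb7, all on the other side. In Alexa Fluor 546 alone Fgfr2 (0.031), Pdgfrb (0.023), Fgfrl1 (0.28), Ctnnbl1 (0.33) and Grb7 (0.027) changed side, and in Alexa Fluor 647 alone Adam10 (0.013). With the median over clones Ctnna1 had 0.015, and without single mice Fgfrl1 ran from -0.20 to 0.0077. The cause was not tested.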
